A study of Mus musculus with 32 samples.

Results

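The effect of a high-fat (HF) against a low-fat (LF) diet on the liver transcriptome was examined in fasted mice that lack Acadm, the gene of medium-chain acyl-CoA dehydrogenase (MCAD-KO, below KO). The comparison holds 7 of the 32 mice sequenced, 3 KO HF fasted mice and 4 KO LF fasted mice, chosen by their labels for genotype, diet and feeding state. All 32 mice were males on the C57BL/6J background, and the 8 groups of 4 mice combined KO or wild type (WT) with the LF or HF diet for 6 weeks and with free feeding or a 16 h fast. The diets were semi-synthetic, and the fat of the HF diet was palm oil. The KO mice lack Acadm in the whole body, not in liver alone. The labels gave ages of 10, 11.5 and 11.5 for the KO HF fasted mice and of 14, 14, 10 and 10.5 for the KO LF fasted mice, without a unit. A further library labelled KO HF fasted, replicate 4, was left out because its profile was that of heart, with a summed level of 12 heart markers of 34100 CPM (counts scaled to a common library size) and of hepatocyte markers of 873 CPM, where the other 31 libraries had at most 74.1 and at least 47000 CPM. These 4 values were scaled by the library total alone, and all other CPM carry TMM scaling factors as well.

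MCAD catalyses the first step of mitochondrial beta-oxidation for fatty acids of medium chain length. During a fast the liver takes up fatty acids released from adipose tissue and oxidizes them to acetyl-CoA and ketone bodies. It makes glucose from lactate, glycerol and amino acids, while sterol synthesis, protein secretion and some steroid-metabolizing enzymes are turned down. Deficiency of MCAD in humans is known for hypoglycemia and low ketone bodies during fasting. A diet rich in fat raises the fatty acid supply before the fast begins, so the comparison addresses how the preceding diet shapes the fasted state when medium-chain oxidation is impaired.

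The targeted gene was low in every KO liver. Acadm (ENSMUSG00000062908, GRCm38 chr3:153922357-153944632, minus strand) had 18.9, 27.5 and 25.7 CPM in the KO HF fasted mice and 37.4, 18.2, 16.5 and 30.4 CPM in the KO LF fasted mice, against 191 to 755 CPM in the 16 WT mice. Its level overlapped between the diets and did not pass the test (log2 fold change HF over LF of -0.09, SE 0.25, adjusted p = 0.942). Total counts per mouse ranged from 2031053 to 4292200 over the 31 mice analysed. Transcripts of adrenal cortex stood out in the KO LF fasted mice of replicates 3 and 4, in which Star, Cyp11a1, Cyp11b1, Cyp21a1 and Hsd3b1 summed to 169 and 73.8 CPM, and to 5.46 CPM or less in the remaining 5 mice. Akr1b7 stood at 122 and 51.3 CPM in those mice and at or below 0.343 CPM in the other 5. KO LF fasted replicate 1 differed most from its group, with a mean chi-square per gene of 34.9 to 55.6 against the other 3 mice of the group, where pairs among those 3 gave 12.6 to 20.6. Hepatocyte markers summed to 55400 to 84100 CPM in HF and 53400 to 70900 CPM in LF mice. In bulk liver RNA, fewer cells of a type and less RNA per cell cannot be told apart.

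In fasted KO liver, 71 genes were higher and 37 were lower on the HF diet (edgeR quasi-likelihood test, Benjamini-Hochberg adjusted p below 0.05). The 108 genes were 0.929% of the 11631 genes tested, with 0.61% higher and 0.318% lower. Over all genes the median log2 fold change was -0.004, with 5765 positive and 5857 negative values. These are the background for the counts of positive and negative list members given below. The genes that rose changed by 0.73 to 5.81 on the log2 scale with a median of 1.35, and those that fell had a median of -0.97. In 102 of the 108 genes the levels of the HF mice did not overlap with those of the LF mice, which held for 9.35% of all genes tested. The 108 genes were chosen by a test on the same mice, so this contrast was largely set by that choice. Interferon-stimulated genes, chaperones and translocation factors of the endoplasmic reticulum (ER), acute-phase genes, sterol genes and male-biased steroid-metabolizing enzymes were among those that rose, and enzymes of methionine, cysteine and urea metabolism and proteins of the lipid droplet were among those that fell.

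The number of genes that passed depended on the mice in the fit. A fit to the 7 mice alone called 13 genes, 9 higher and 4 lower, of which 11 were among the 108, and with both adrenal-bearing mice also removed it called 0, and 849 genes had an unadjusted p under 0.05. In the fit with all groups, leaving out KO HF fasted replicate 3 gave 38 genes, KO LF fasted replicate 4 gave 41 and KO HF fasted replicate 1 gave 55, whereas 167 passed without KO LF fasted replicate 3, 85 without KO LF fasted replicate 1 and 144 without both adrenal-bearing mice. All 108 genes kept their direction in each of these fits. The fits share mice with the one that chose the genes, so a kept direction was largely set by that choice. Of the 108, 22 (16 higher, 6 lower) passed whichever of the 7 mice was left out. In the fit to the 7 mice alone, Isg15, Ifit3b, Stard4, Nudt7, Csad and Glt1d1 were the members of these 22 that passed, and for example Mat1a, Plin5 and Slc41a2 (each adjusted p = 0.0733), Aox3 (0.0742), Akr1c6 (0.0858), Pdia6 (0.114) and Sec61b (0.305) did not. The 22 genes include Isg15, Ifit3b, Iigp1, Gbp7, Pdia6, Sec61b, Slc35b1, Stard4, Slc41a2, Akr1c6, Nudt7, Aox3, Mbl2, Proz and Lasp1 among the genes that rose and Mat1a, Csad, Plin5, Glrx and Glt1d1 among those that fell. Within lane 7, which held 2 HF and 3 LF mice, 13 genes passed, 10 higher and 3 lower, and lane 8 held 1 mouse of each group.

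**Figure D1:**
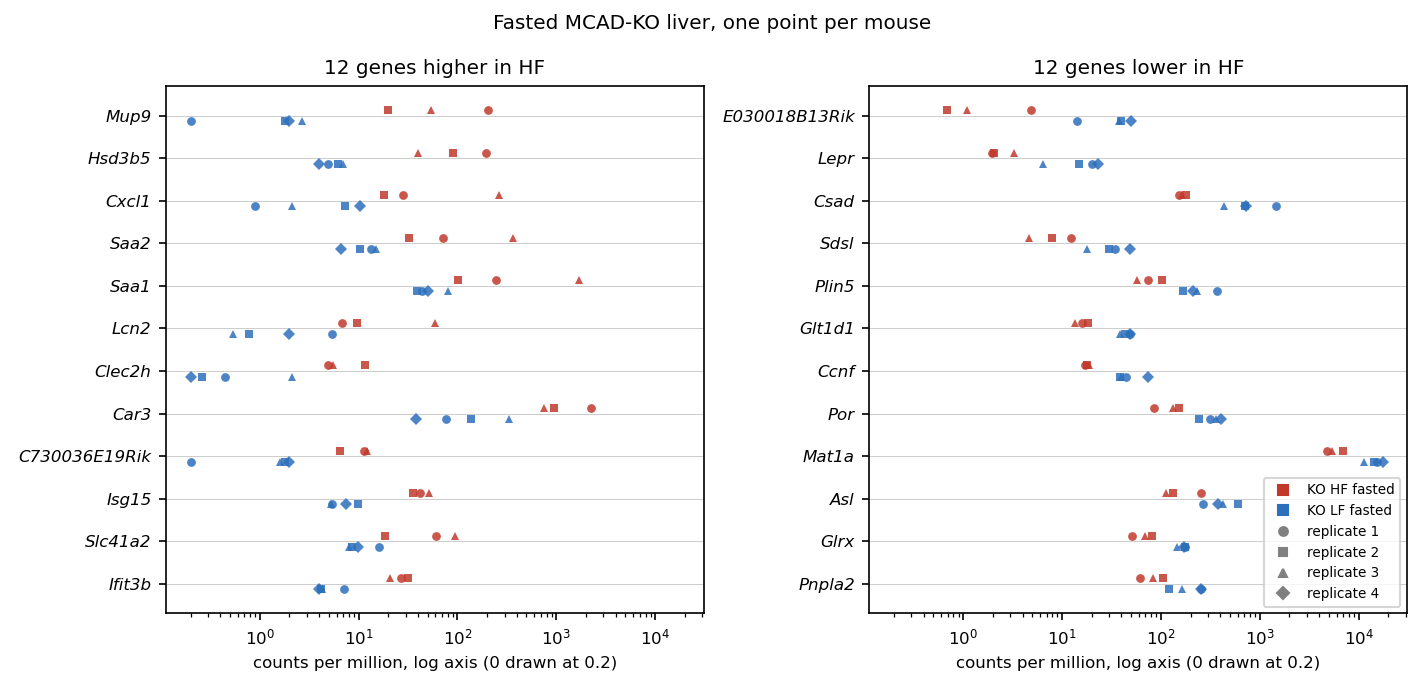
Normalized level of the 12 genes with the largest rise (left) and the 12 with the largest fall (right) among genes that passed with no overlap between groups, in CPM on a log axis, with 1 point per mouse, HF in red, LF in blue and the marker shape giving the replicate. Every red point lies to the right of every blue point on the left and to the left of every blue point on the right, and for Saa1, Saa2, Cxcl1 and Lcn2 the triangle of KO HF fasted replicate 3 lies far above the other HF mice.

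Interferon-stimulated genes were higher on the HF diet. These genes are induced by type I or II interferon through STAT and IRF transcription factors and encode antiviral and antigen-presenting proteins. Of 36 genes tested on a list assembled after the values were seen, 7 rose and 0 fell, all 36 had a positive log2 fold change, and the median was 0.99. Isg15, a ubiquitin-like modifier, had 42.3, 35.4 and 51.1 CPM in HF mice and 5.34, 9.87, 5.32 and 7.5 CPM in LF mice. The groups were far apart, with a log2 fold change of 2.57 (SE 0.32, adjusted p = 1.04e-05), a rise of 5.92-fold. Ifit3b, a member of the family that binds foreign RNA, had 26.7, 31.9 and 21.0 CPM in HF and 7.12, 4.16, 4.26 and 3.94 CPM in LF mice, a log2 fold change of 2.45 (SE 0.37, adjusted p = 0.000336). The immunity-related GTPase Iigp1 had 644, 891 and 1120 CPM in HF and 287, 394, 256 and 323 CPM in LF mice (log2 fold change 1.49, SE 0.26, adjusted p = 0.00188). The guanylate-binding protein Gbp7 had 35.5, 51.8 and 40.1 CPM in HF and 15.6, 16.1, 6.38 and 15.0 CPM in LF mice (log2 fold change 1.65, adjusted p = 0.00322).

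The other 3 interferon-stimulated genes that passed were Ifit1 (log2 fold change 1.87), Ifi47 (1.69) and Rtp4 (1.46), each with an adjusted p of 0.0252. Each of these 3 lost the call when 1 of several mice was left out, with adjusted p-values up to 0.0839 for Ifit1 (without KO LF fasted replicate 4; also without either LF replicate 1 or 3 or any HF mouse), 0.145 for Ifi47 (without KO HF fasted replicate 3; also without HF replicate 1 or LF replicate 1 or 3) and 0.113 for Rtp4 (without KO HF fasted replicate 3; also without HF replicate 2 or LF replicate 1 or 4). The summed level of the list was 4840 to 5890 CPM in HF and 2980 to 3940 CPM in LF mice, without overlap. It was 4550 to 5940 CPM in KO HF fed and 3960 to 5090 CPM in KO LF fed mice, so the fasted LF group was the lowest of the KO groups. In fasted WT mice it was 4470 to 6130 CPM in HF and 2910 to 4720 CPM in LF mice, with overlap. Without the 2 adrenal-bearing mice 4 of the 36 passed with a median of 0.90, and without KO HF fasted replicate 3 it was 5 with a median of 1.06. In these fits 2 and 3 of the 36 were negative. The fit to the 7 mice alone called 2 of 32 tested, with a median of 0.89 and 0 negative. Within lane 7, 2 of 35 tested passed, with a median of 1.0 and 3 negative. Macrophage markers, listed as 22 tested genes, had 20 positive values and a median of 0.24, with Mpeg1, a pore-forming protein of macrophages, the one member that passed (1.15, adjusted p = 0.0429, lost without any one mouse except KO LF fasted replicate 2, with adjusted p-values up to 0.166). Without KO LF fasted replicate 1 the median was 0.54 with 21 of 22 positive, and without the adrenal-bearing mice it was 0.06 with 13 of 23 positive. The macrophage markers summed to 844 to 1150 CPM in HF mice, to 1130 CPM in KO LF fasted replicate 1 and to 717, 765 and 725 CPM in the other LF mice, and markers of T and NK cells to at most 3.94 CPM in either group; their part in the interferon-stimulated genes was not tested.

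Promoter sequences of list members are shown as a description only. Windows from 250 bases before to 50 bases after a start site were taken from RefSeq (GRCm38.p6) for 28 of the 36 genes and searched on both strands for GAAANNGAAA, the core of the interferon-stimulated response element. A match was present in 17 of the 28 genes (60.7%) and in 3.99% of all 27025 genes with a window. The genes were listed as interferon-stimulated, so this contrast describes the list and not the diet effect. Iigp1, Ifi47 and Rtp4, which also passed, held no match or had no window. The stretches around the matches, read in the direction of the gene with matches in capitals and overlapping matches merged, were the following for the 4 genes that passed and held a match.
Isg15 (chr4:156200860-156200911, minus strand): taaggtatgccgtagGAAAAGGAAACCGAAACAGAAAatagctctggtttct
Ifit1 (chr19:34640770-34640828, plus strand): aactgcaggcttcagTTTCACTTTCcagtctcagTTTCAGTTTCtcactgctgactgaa
Ifit3b (chr19:34607754-34607827, plus strand): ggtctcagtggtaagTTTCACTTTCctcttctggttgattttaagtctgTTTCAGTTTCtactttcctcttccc
Gbp7 (chr3:142530268-142530307, plus strand): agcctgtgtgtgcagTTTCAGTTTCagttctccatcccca
Isg15 held 3 overlapping matches on the strand of the gene, Ifit1 and Ifit3b held 2 each on the opposite strand, and Gbp7 held 1. The Ifit3b stretch is the same as that of its neighbour Ifit3, and reads of these near-identical genes may be split between them by the counting.

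Several chaperones and translocation factors of the ER rose on the HF diet. These proteins fold and glycosylate secreted and membrane proteins, and the unfolded protein response adjusts their transcription to the load. Of 24 genes tested on the ER and amino acid stress list, 3 rose and 0 fell, 19 were positive and the median was 0.79. Pdia6, a protein disulfide isomerase, had 518, 282 and 436 CPM in HF and 157, 97.4, 194 and 196 CPM in LF mice, a log2 fold change of 1.36 (SE 0.25, adjusted p = 0.00272). Hsp90b1, the ER member of the HSP90 chaperones, had 1070, 995 and 862 CPM in HF and 344, 584, 542 and 594 CPM in LF mice (log2 fold change 0.92, adjusted p = 0.0432). Hyou1, a nucleotide exchange factor for the ER HSP70, had 27.6, 10.6 and 16.4 CPM in HF and 5.78, 4.68, 8.51 and 2.76 CPM in LF mice (log2 fold change 1.78, adjusted p = 0.0312). The HF mice lay above the LF mice for all 3 genes. Calr (0.77, adjusted p = 0.0607) and Hspa5, the main ER HSP70 (0.83, adjusted p = 0.297), did not pass.

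The calls of Hyou1 and Hsp90b1 were not stable to the mice included. Hyou1 lost its call without any one mouse except KO HF fasted replicate 2 and KO LF fasted replicate 3, with adjusted p-values up to 0.253 (without KO HF fasted replicate 1), and Hsp90b1 without any one mouse except KO LF fasted replicate 2, up to 0.181 (without KO HF fasted replicate 1). Without KO HF fasted replicate 3, 1 of the 24 genes passed with a median of 0.67, and without the adrenal-bearing mice 3 of 25 passed with a median of 0.80. In the fit to the 7 mice alone and within lane 7, 0 members of the ER list or of the translocon list described next passed. The summed level of the list was 5660 to 7690 CPM in HF and 2940 to 4430 CPM in LF mice, without overlap.

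Of 35 tested genes of the translocon, the signal sequence receptor and N-glycosylation, on a list assembled after the values were seen, 5 rose and 1 fell, with 29 positive values and a median of 0.34. Sec61b, a subunit of the protein-conducting channel, had 89.1, 54.9 and 72.9 CPM in HF and 7.56, 36.9, 35.6 and 28.0 CPM in LF mice (log2 fold change 1.41, SE 0.27, adjusted p = 0.00548). Slc35b1, which carries ATP into the ER, had 96.0, 69.7 and 98.3 CPM in HF and 21.3, 30.4, 54.8 and 33.1 CPM in LF mice (log2 fold change 1.35, adjusted p = 0.00188). KO LF fasted replicate 1 was lowest for both genes, and both passed without it. The glycosyltransferase Alg2 (1.58), the stress sensor kinase Ern1 (1.03) and the signal sequence receptor subunit Ssr3 (0.78) also rose, and Nomo1 fell (-0.78). These 4 lost the call without KO LF fasted replicate 1 or 4 or KO HF fasted replicate 1 or 3, and Ern1 and Nomo1 also without KO HF fasted replicate 2, with adjusted p-values up to 0.192, 0.149, 0.282 and 0.145 respectively. Without KO LF fasted replicate 1 or without KO HF fasted replicate 3, 2 of the 35 rose.

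A match to the ER stress response element, CCAAT and CCACG with 9 bases of any kind between them, was present in the windows of 7 of the 22 ER list genes that had one (31.8%) and in 0.137% of all genes. The list was made of ER and amino acid stress genes, so this contrast too describes the list and not the diet effect. None of 27 genes of the translocon list with a window held it. Hyou1, which rose, held no match or had no window. Shown with the match in capitals are the 2 genes with a match that rose and, for reference, the 2 abundant chaperones that did not pass.
Pdia6 (chr12:17266476-17266524, plus strand): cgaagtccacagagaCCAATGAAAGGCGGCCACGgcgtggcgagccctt
Hsp90b1 (chr10:86705518-86705671, minus strand): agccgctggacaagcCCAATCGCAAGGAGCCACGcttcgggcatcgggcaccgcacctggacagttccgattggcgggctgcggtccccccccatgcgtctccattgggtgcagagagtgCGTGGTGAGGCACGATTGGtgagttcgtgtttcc
Hspa5 (chr2:34772010-34772058, plus strand): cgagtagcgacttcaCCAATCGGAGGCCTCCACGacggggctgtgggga
Calr (chr8:84847060-84847108, minus strand): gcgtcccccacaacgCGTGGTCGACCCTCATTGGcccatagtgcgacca
The Hsp90b1 window held 2 matches, 1 on each strand, and Pdia6 and Hspa5 held 1 on the strand of the gene.

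A few acute-phase genes rose on the HF diet, and their calls rested on 1 mouse. The acute-phase response is the secretion of host-defence proteins by hepatocytes under interleukin-6 and interleukin-1. Of 26 genes tested, 4 rose and 0 fell, 21 were positive and the median was 0.65. Serum amyloid Saa2 had 71.6, 32.3 and 367 CPM in HF and 13.3, 10.4, 14.9 and 6.71 CPM in LF mice (log2 fold change 3.81, adjusted p = 0.00531). Saa1 had 243, 101 and 1700 CPM in HF and 43.6, 38.7, 79.8 and 50.9 CPM in LF mice (log2 fold change 3.69, adjusted p = 0.022). All HF mice lay above all LF mice, and KO HF fasted replicate 3 lay far above the other HF mice. The metalloreductase Steap4 (2.25, adjusted p = 0.00879) and the siderophore-binding Lcn2 (3.58, adjusted p = 0.0404) followed the same order, with 228 and 59.3 CPM in replicate 3 against at most 47.8 and 9.61 CPM in the other HF mice. The neutrophil chemoattractant Cxcl1 had 28.0, 18.2 and 262 CPM in HF and 0.89, 7.27, 2.13 and 10.3 CPM in LF mice (4.24, adjusted p = 0.0171).

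Without KO HF fasted replicate 3, 0 of the 26 acute-phase genes passed and their median was 0.12, with log2 fold changes of 2.21 for Saa2, 1.71 for Saa1, 1.0 for Steap4, 1.94 for Lcn2 and 2.08 for Cxcl1 (adjusted p 0.112 to 0.419). In the fit to the 7 mice alone and within lane 7, 0 of the 26 passed as well. Saa1 also lost the call without KO LF fasted replicate 1 (0.0568) or 4 (0.0768), and Lcn2 without KO LF fasted replicate 2 (0.0871), 3 (0.0723) or 4 (0.115). The list summed to 19500, 16400 and 37900 CPM in HF mice and to 15000 to 17900 CPM in LF mice, with overlap. Fibrinogen chains Fgb (0.70, adjusted p = 0.103) and Fgg (0.70, adjusted p = 0.179) did not pass. Neutrophil markers were near 0 in all 7 livers but moved with diet, summing to 17.6, 17.5 and 22.7 CPM in HF and 3.12 to 10.6 CPM in LF mice, almost wholly from S100a8 and S100a9, whereas Ngp, Camp and Elane were at or below 0.651 CPM; 0 of the 2 markers tested passed. Their part in the acute-phase values was not tested.

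Outside that list, 4 genes of plasma proteins are given that were picked after their values were seen, with no count over such genes. The lectin Mbl2 had 777, 747 and 663 CPM in HF and 289, 309, 584 and 375 CPM in LF mice (0.91, adjusted p = 0.00867), and the coagulation protein Proz had 78.4, 69.3 and 77.8 CPM in HF and 38.7, 39.2, 34.0 and 35.5 CPM in LF mice (1.02, SE 0.20, adjusted p = 0.00604). KO HF fasted replicate 3 did not stand out for either, and both passed whichever mouse was left out. Serpina10, the partner protease inhibitor of protein Z, rose by 1.11 with KO LF fasted replicate 1 above KO HF fasted replicate 2 (adjusted p = 0.00655; 0.187 without KO HF fasted replicate 3), and complement C4bp by 0.87 (adjusted p = 0.0252; 0.312 without it, and also lost without KO LF fasted replicate 1, 0.067, or 4, 0.082).

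Sterol synthesis genes were higher on the HF diet in 21 of 24 cases, against 5765 of all 11631 genes tested, and 2 of the 24 passed. These genes are targets of SREBP2, which responds to low sterol in the ER membrane. Stard4, an intracellular sterol carrier, had 61.5, 54.9 and 68.5 CPM in HF and 16.0, 16.9, 11.2 and 17.4 CPM in LF mice. The spread within each group was small, and the log2 fold change was 1.99 (SE 0.28, adjusted p = 0.000168), a rise of 3.97-fold. Msmo1, which removes methyl groups from lanosterol derivatives, had 74.5, 64.5 and 262 CPM in HF and 24.9, 33.5, 28.7 and 22.1 CPM in LF mice (2.29, adjusted p = 0.0448). It lost the call without KO HF fasted replicate 3 (1.34, adjusted p = 0.399) and without any one LF mouse (adjusted p 0.0584 to 0.124). Insig1 (2.08, adjusted p = 0.0721) and Sqle (3.10, adjusted p = 0.0802) did not pass, and the median of the list was 0.68, or 0.47 without KO HF fasted replicate 3. The list summed to 1580 to 2470 CPM in HF and 1070 to 1690 CPM in LF mice. The sterol regulatory element TCACNCCAC was found in the window of 1 of 16 genes of the list (6.25%) and of 1.44% of all genes; that gene was Hmgcs1.

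Male-biased genes of mouse liver depend on pulsatile growth hormone. Hsd3b5, a hydroxysteroid dehydrogenase of this kind, had 197, 91.0 and 40.1 CPM in HF and 4.89, 6.23, 6.92 and 3.94 CPM in LF mice (log2 fold change 4.30, SE 0.88, adjusted p = 0.0178), a rise of 19.8-fold. Mup9, a major urinary protein, had 204, 19.9 and 54.3 CPM in HF and 0, 1.82, 2.66 and 1.97 CPM in LF mice (5.81, adjusted p = 0.0101), but members of this cluster share sequence and its counts may be split among them. The HF mice varied widely for both genes, and all lay above the LF mice. Of 29 genes tested on the growth hormone and sex-biased list, 2 rose (Hsd3b5 and Nudt7), 0 fell, 21 were positive and the median was 0.31. Mup3 overlapped between the groups. Cyp17a1 was lower on HF, with 14.2 to 16.3 CPM in HF and 48.9 to 133 CPM in LF mice. It did not pass (-2.57, adjusted p = 0.058, and adjusted p = 0.0134 in the fit to the 7 mice alone). The list is of sex-biased genes and not of male-biased genes alone, so its median has no single expected side.

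Nudt7, a peroxisomal hydrolase of coenzyme A, had 436, 563 and 560 CPM in HF and 155, 150, 198 and 140 CPM in LF mice (1.69, SE 0.33, adjusted p = 0.00726), the one of 15 tested genes of coenzyme A metabolism that passed. Aox3, an aldehyde oxidase, had 244, 161 and 191 CPM in HF and 29.8, 47.3, 102 and 33.5 CPM in LF mice (1.91, adjusted p = 0.0072), the one of 26 NAD-related genes. The aldo-keto reductase Akr1c6 had 873, 715 and 652 CPM in HF and 145, 280, 396 and 237 CPM in LF mice (1.5, adjusted p = 0.00185). For these 3 genes the groups did not overlap and the call held whichever mouse was left out. Hsd17b6, which acts on androgens and retinoids, rose by 2.35 (adjusted p = 0.0252) from 28.7 to 48.9 CPM in LF to 101, 261 and 248 CPM in HF mice, and lost the call without either KO HF fasted replicate 2 or 3 or KO LF fasted replicate 4 (up to 0.115). The carbonic anhydrase Car3 had 2220, 949 and 745 CPM in HF and 76.9, 138, 333 and 38.3 CPM in LF mice (3.16, adjusted p = 0.0252). Without KO HF fasted replicate 1, Mup9 (4.5, adjusted p = 0.0817), Hsd3b5 (3.56, adjusted p = 0.107) and Car3 (2.54, adjusted p = 0.152) did not pass. Hsd3b5 and Car3 also lost the call without KO LF fasted replicate 4 (0.0734 and 0.082), and Car3 without KO LF fasted replicate 1 (0.0772). Among 34 cytochrome P450 genes of families 1 to 3 and their regulators, Cyp2c23 rose (1.01, adjusted p = 0.0287; lost without any one mouse except KO LF fasted replicate 2 or 3, up to 0.121) and Por, the reductase that supplies their electrons, fell.

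**Figure D2:**
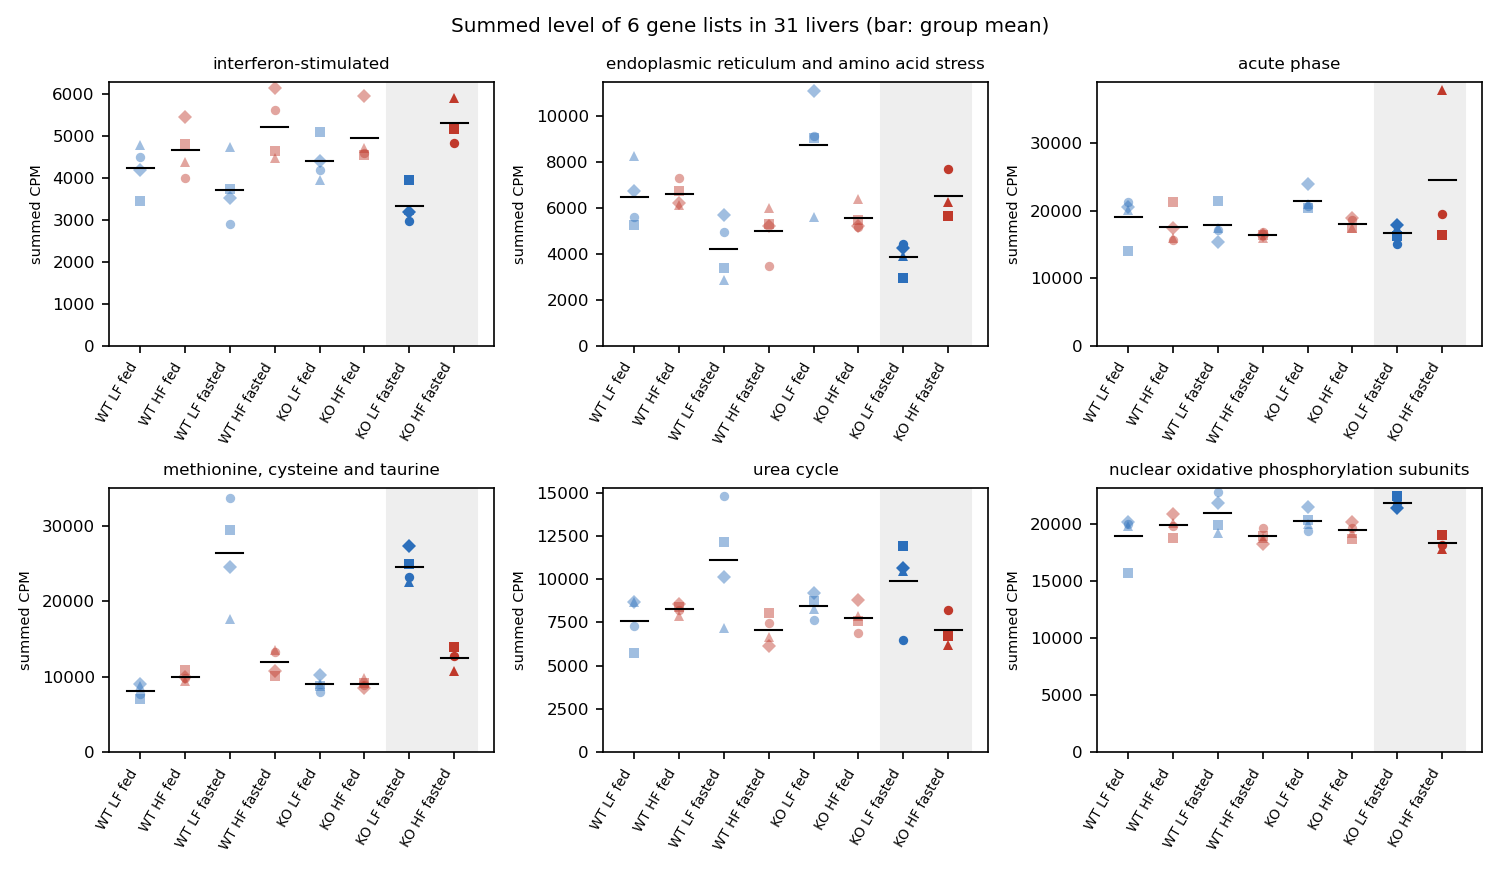
Summed CPM of 6 gene lists in each of the 31 livers by group, LF in blue and HF in red, with the marker shape giving the replicate, a black bar for the group mean and the fasted KO groups shaded. In the shaded groups the interferon-stimulated and ER lists lie higher and the methionine and respiratory chain lists lower on HF without overlap, and the acute-phase list is raised mainly by the triangle of KO HF fasted replicate 3. Mat1a makes up a large part of the sum of the methionine list.

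Some enzymes of methionine, cysteine and taurine metabolism fell on the HF diet. Of 22 genes tested on a list assembled after the values were seen, 3 fell and 0 rose, 16 were negative and the median was -0.43. Mat1a, which makes S-adenosylmethionine, had 4850, 7040 and 5340 CPM in HF and 15300, 14400, 11300 and 17500 CPM in LF mice. The groups were well separated, with a log2 fold change of -1.35 (SE 0.23, adjusted p = 0.00185), 2.55-fold lower in HF. Csad, the decarboxylase of taurine synthesis, had 152, 180 and 163 CPM in HF and 1480, 713, 440 and 733 CPM in LF mice (-2.35, SE 0.42, adjusted p = 0.00441). Both calls held whichever mouse was left out. Oplah, the 5-oxoprolinase of glutathione turnover, also fell (-1.04, adjusted p = 0.0252; lost without KO HF fasted replicate 1 or 3 or KO LF fasted replicate 1 or 4, up to 0.162). Without the adrenal-bearing mice 3 of the 22 fell and 1 rose. The list summed to 10800 to 13900 CPM in HF and 22600 to 27300 CPM in LF mice. Mat1a, with means of 5740 CPM in HF and 14600 CPM in LF mice, made up a large part of these sums. Sdsl, a serine dehydratase-like enzyme, fell as well, from 34.7, 30.1, 18.1 and 48.5 CPM in LF to 12.4, 7.90 and 4.64 CPM in HF mice (-2.0, adjusted p = 0.00236; 0.052 without KO HF fasted replicate 3).

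Of 11 urea cycle genes tested, on a list assembled after the values were seen, 2 fell and 0 rose, with a median of -0.42. Arg1, arginase, had 1640, 1100 and 1120 CPM in HF and 2160, 3930, 2650 and 3080 CPM in LF mice (-1.20, SE 0.24, adjusted p = 0.00726). It lost the call without KO HF fasted replicate 2 (adjusted p = 0.0538) or 3 (0.0839). Asl, argininosuccinate lyase, had 255, 132 and 114 CPM in HF and 266, 605, 425 and 381 CPM in LF mice (-1.33, adjusted p = 0.0456). Its nearest mice, KO HF fasted replicate 1 and KO LF fasted replicate 1, were almost equal, and it lost the call without either HF replicate 2 or 3 or LF replicate 2, 3 or 4, with adjusted p-values up to 0.253. Cps1, the entry enzyme of the cycle, had 1880, 1540 and 906 CPM in HF and 735, 3750, 2790 and 3400 CPM in LF mice and did not pass (-0.89, adjusted p = 0.288), KO LF fasted replicate 1 being the lowest of all 7 mice. Without that mouse 3 of the 11 urea cycle genes fell, and without the adrenal-bearing mice 1 fell and 1 rose. None (0) passed without KO HF fasted replicate 3.

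Of 25 genes of gluconeogenesis and fasting signals, Asl was the one that passed, but 22 were negative and the median was -0.74, against -0.004 over all genes. Got1 (-1.57, adjusted p = 0.123), Gpt2 (-0.74, adjusted p = 0.126) and the glucose-6-phosphate transporter Slc37a4 (-1.06, adjusted p = 0.132) had the smallest p-values of the others. Pck1, the cytosolic carboxykinase, had 3680, 11500 and 6730 CPM in HF and 2210, 8780, 12500 and 13300 CPM in LF mice, with overlap (-0.34, adjusted p = 0.87), and its fold change was 0.41 without both adrenal-bearing mice. Without KO LF fasted replicate 1, 3 genes of the list fell and the median was -0.80, and without the adrenal-bearing mice 0 passed and it was -0.46.

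Plin5, Pnpla2 and Dgat1 fell, among 32 tested genes of lipid uptake and storage of which 0 rose. Plin5, which couples droplets to mitochondria, had 74.2, 104 and 57.1 CPM in HF and 374, 168, 230 and 214 CPM in LF mice, and the groups did not overlap (-1.65, SE 0.28, adjusted p = 0.00185). Pnpla2, the adipose triglyceride lipase, had 62.1, 105 and 82.7 CPM in HF and 257, 121, 163 and 255 CPM in LF mice (-1.25, adjusted p = 0.0246). Dgat1, an acyltransferase of triglyceride synthesis, had 35.8, 45 and 25.4 CPM in HF and 96.1, 39.0, 64.4 and 77.7 CPM in LF mice (-0.97, adjusted p = 0.0425), with HF replicate 2 above LF replicate 2. Plin5 passed whichever mouse was left out, while Pnpla2 and Dgat1 lost the call without KO HF fasted replicate 1 or 3 or KO LF fasted replicate 1 or 4, up to 0.167 and 0.282. The median of the list was -0.18, and without the adrenal-bearing mice it turned to 0.12, with 17 of 32 positive and 2 that fell. The list summed to 7150, 13900 and 12900 CPM in HF and 9760 to 13900 CPM in LF mice, KO HF fasted replicate 1 being the lowest. Adipose markers summed to 64.4, 66.9 and 131 CPM in HF and 148 to 353 CPM in LF mice, with Cidec, a droplet protein that fasting hepatocytes also express, at 3.25 to 48.6 CPM in HF and 12.8 to 178 CPM in LF mice and Adipoq at most 0.819 CPM in HF and 8.68 CPM in LF mice; their part in these values was not tested.

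Few genes of fatty acid oxidation passed. Of 23 tested genes of mitochondrial beta-oxidation and ketogenesis 1 rose and 0 fell, with 18 negative values and a median of -0.25. The member that rose was Bdh1, the mitochondrial dehydrogenase that interconverts the ketone bodies, with 234, 474 and 388 CPM in HF and 198, 207, 130 and 191 CPM in LF mice (1.01, adjusted p = 0.0331), and it lost the call without either KO HF fasted replicate 2 or 3 or KO LF fasted replicate 1, 3 or 4 (up to 0.215). Cpt2 (-0.73, adjusted p = 0.0733), Acadvl (-0.61, adjusted p = 0.0735) and Hadha (-0.70, adjusted p = 0.0893) did not pass. Of 21 peroxisomal and microsomal oxidation genes 0 passed, although 17 were negative with a median of -0.53. This list summed to 7160, 27200 and 21600 CPM in HF and 22700 to 66200 CPM in LF mice. The mitochondrial list summed to 7430, 11700 and 10800 CPM in HF and 9400 to 12800 CPM in LF mice. KO HF fasted replicate 1 was the lowest mouse on both lists, and no list median without it is given. Among the peroxisomal and microsomal genes Ehhadh had 103, 437 and 483 CPM in HF and 156, 2150, 695 and 2650 CPM in LF mice (-2.05, adjusted p = 0.184), and Cyp4a14 had 1120, 12100 and 7830 CPM in HF and 42100, 15300, 12800 and 29600 CPM in LF mice (-1.83, adjusted p = 0.51). For Cyp4a14 the groups did not overlap, yet the HF mice were widely spread. Crat (-1.18, adjusted p = 0.137), Pex11a (-1.13, adjusted p = 0.146) and Acaa1b (-1.31, adjusted p = 0.155) had similar values. Without the adrenal-bearing mice 2 mitochondrial and 1 peroxisomal gene fell. Of 18 fatty acid synthesis genes 0 passed with a median of -0.24, including Acacb (-1.6, adjusted p = 0.187) and Scd1 (-0.50, adjusted p = 0.859). The cytosolic acyl-CoA thioesterase Acot12 fell (-0.82, adjusted p = 0.0252; lost without KO HF fasted replicate 1 or 3 or KO LF fasted replicate 4, up to 0.202).

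Nuclear genes of the respiratory chain were slightly lower on the HF diet in most cases. On a list of 79 tested subunits, defined after the values were seen, 69 were negative with a median of -0.29, and 1 passed. That was Uqcr10, a subunit of complex III, with 261, 253 and 242 CPM in HF and 537, 394, 350 and 376 CPM in LF mice (-0.72, SE 0.17, adjusted p = 0.0252), which lost the call without any one HF mouse or without KO LF fasted replicate 1 (up to 0.124). The list summed to 17900 to 19100 CPM in HF and 21400 to 22500 CPM in LF mice, without overlap. Ndufab1, the mitochondrial acyl carrier protein (-0.84, adjusted p = 0.0416), Samm50 of the outer membrane sorting machinery (-0.78, adjusted p = 0.0198) and the prohibitin Phb2 (-0.63, adjusted p = 0.0432) also fell, and each lost the call without KO HF fasted replicate 1 or 3 or KO LF fasted replicate 4 (up to 0.176, 0.127 and 0.219), and Ndufab1 and Phb2 also without KO HF fasted replicate 2 or KO LF fasted replicate 1. Transcripts of the mitochondrial genome had 6 of 7 tested genes negative with a median of -0.35, and 0 passed; mt-Nd1 had the smallest p-value (-0.57, adjusted p = 0.128).

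Among the genes of largest change were others outside these groups. Lepr, the leptin receptor, had 1.95, 2.06 and 3.28 CPM in HF and 20, 14.8, 6.38 and 23.3 CPM in LF mice, 6.5-fold lower in HF (-2.70, adjusted p = 0.0115), and the uncharacterized transcript E030018B13Rik had 0.687 to 4.88 CPM in HF and 14.2 to 49.7 CPM in LF mice (-3.98, adjusted p = 0.0295). Por had 84.6, 154 and 133 CPM in HF and 315, 245, 363 and 407 CPM in LF mice (-1.42, adjusted p = 0.0252). Glrx, a thiol reductant, had 50.7, 81.7 and 69.6 CPM in HF and 177, 177, 145 and 170 CPM in LF mice (-1.31, SE 0.23, adjusted p = 0.00188). Glt1d1 (-1.49, adjusted p = 0.00193) and the cyclin Ccnf (-1.45, adjusted p = 0.0251) fell without overlap. Slc41a2, a magnesium transporter, had 60.8, 18.5 and 95.6 CPM in HF and 16.0, 8.57, 7.98 and 9.86 CPM in LF mice (2.47, adjusted p = 0.000801). The lectin Clec2h (3.53, adjusted p = 0.0432) and the transcript C730036E19Rik (2.82, adjusted p = 0.0287) rose from at most 2.13 CPM in LF mice. Glrx, Glt1d1 and Slc41a2 passed whichever mouse was left out. Lepr lost the call without KO HF fasted replicate 1 or 2 or KO LF fasted replicate 4 (up to 0.0801), E030018B13Rik without HF replicate 2 or 3 or LF replicate 4 (0.177), Por without HF replicate 1 or 3 or LF replicate 1 or 4 (0.173), Ccnf without any HF mouse or LF replicate 4 (0.12), C730036E19Rik without HF replicate 1 or 3 or LF replicate 1 or 4 (0.126), and Clec2h without any one mouse except LF replicate 3 (0.164).

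In the remaining lists no member passed. These were bile acid synthesis and transport (23 tested, median -0.04), phase II conjugation (36, 0.16), NRF2 and glutathione (20, 0.06), stellate cell and matrix (24, -0.03), cytosolic heat shock (18, -0.01), circadian clock (19, 0.14) and metallothionein, growth arrest and immediate early genes (21, 0.01). Single members had large but variable values, such as the clock output gene Dbp with 20.5, 79.3 and 37.7 CPM in HF and 3.19 to 11.4 CPM in LF mice (2.58, adjusted p = 0.0905) and the cell cycle inhibitor Cdkn1a with 10.4, 11.3 and 46.4 CPM in HF and 88.8 to 179 CPM in LF mice (-2.45, adjusted p = 0.0825). In the bile acid list, Cyp8b1 had 327 to 569 CPM in HF and 692 to 1410 CPM in LF mice (-1.18, adjusted p = 0.156), and the uptake transporter Slco1b2 had 3340 to 4270 CPM in HF and 2050 to 2680 CPM in LF mice (0.76, adjusted p = 0.156).

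**Figure D3:**
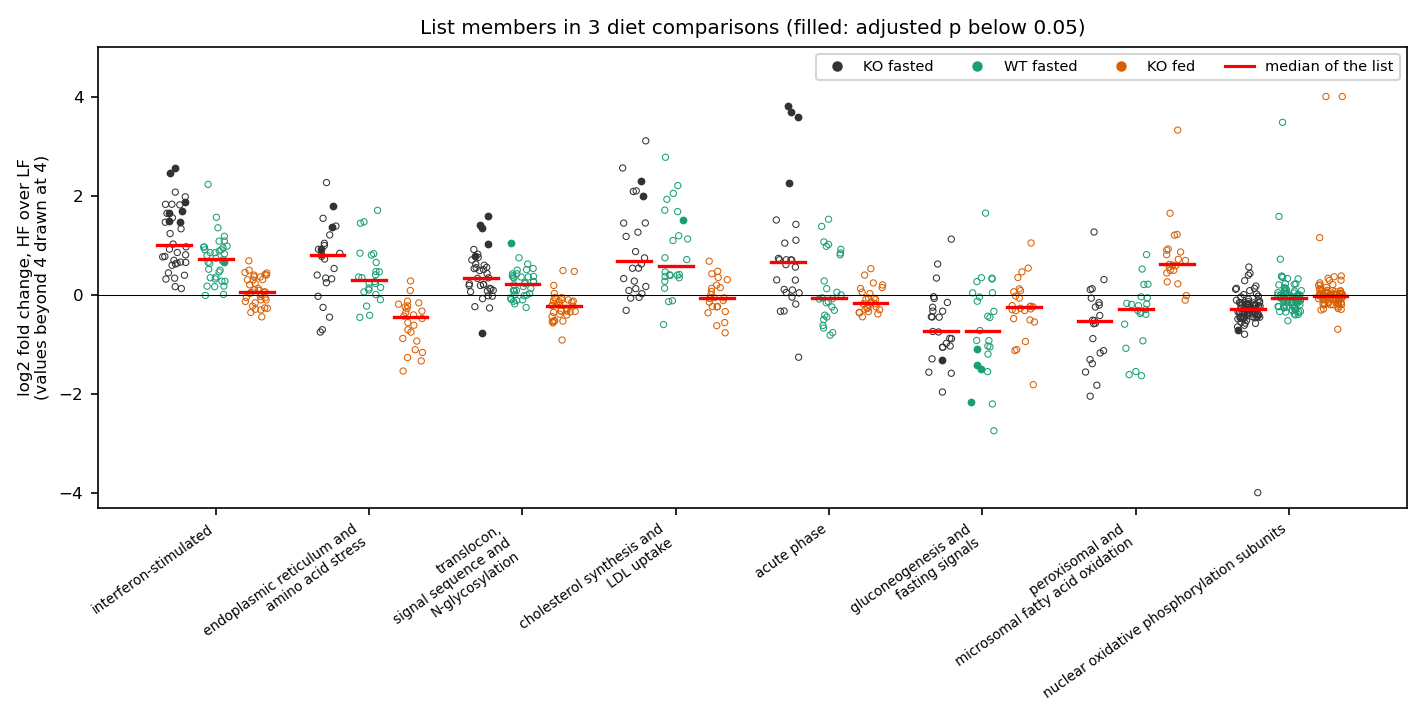
Log2 fold change HF over LF of every tested member of 8 lists in fasted KO, fasted WT and fed KO mice, with filled points for an adjusted p below 0.05, a red bar for the list median and values beyond 4 drawn at 4. In fasted KO mice the interferon-stimulated points all lie above 0 (median 0.99), as against medians of 0.72 in fasted WT and 0.05 in fed KO mice.

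The same diet comparison in fasted WT mice, which shares no mouse with the KO comparison, called 92 genes, 55 higher and 37 lower (0.791% of those tested). Markers of acinar pancreas summed to 17400 CPM in 1 WT HF fasted mouse, with a group median of 19.3 CPM. Of the 5 tested, 1 was among these calls. Star, Cyp11a1, Cyp11b1, Cyp21a1 and Hsd3b1 summed to 36.2 CPM in WT HF fasted replicate 3 and to at most 4.94 CPM in the others of that group. The part of such RNA in the other calls was not tested. Of the 71 genes that rose in fasted KO liver, 70 had the same direction in WT with a median of 0.83, and 16 passed there. Of the 37 that fell, 37 had the same direction with a median of -0.86, and 16 passed. The share of all genes tested with the same direction in both genotypes is not given. The 32 genes that passed in both genotypes were 29.6% of the KO calls and 34.8% of the WT calls. In WT, Mat1a had a log2 fold change of -1.61 (SE 0.21, adjusted p = 5.17e-05), Plin5 of -1.30 (adjusted p = 0.00623), Arg1 of -1.40 (adjusted p = 0.000679) and Lepr of -3.70 (adjusted p = 0.000208). Stard4 rose by 1.51 (adjusted p = 0.00234), Akr1c6 by 1.56 (adjusted p = 0.000556), Hsd3b5 by 3.84 (adjusted p = 0.0232) and Car3 by 3.08 (adjusted p = 0.0249).

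Some KO calls had smaller values in WT. Isg15 had a log2 fold change of 0.96 in fasted WT (SE 0.28, adjusted p = 0.108), Saa2 of 1.38 (adjusted p = 0.37), Cxcl1 of 1.25 (adjusted p = 0.654), Hyou1 of 0.05 (adjusted p = 0.984) and Hsp90b1 of 0.00 (adjusted p = 0.999). The difference itself was tested as an interaction of genotype and diet in fasted mice, and 0 genes passed (edgeR, smallest adjusted p = 0.886), and 405 had an unadjusted p under 0.05; DESeq2 called 0 and limma voom 0. The smallest p-values among higher differences were those of Isg15 (1.6 larger in KO, SE 0.42), Slc41a2 (1.94, SE 0.51) and Ikzf5 (1.23, SE 0.36), and among lower ones Npr1 (-2.68), the adrenal gene Star (-9.93) and Abca3 (-1.47), none of which passed. In the fit without KO HF fasted replicate 2, 1 gene passed. The diet effect on Star was -5.38 in fasted KO and 4.55 in fasted WT mice, and both comparisons held mice with adrenal transcripts.

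**Figure D4:**
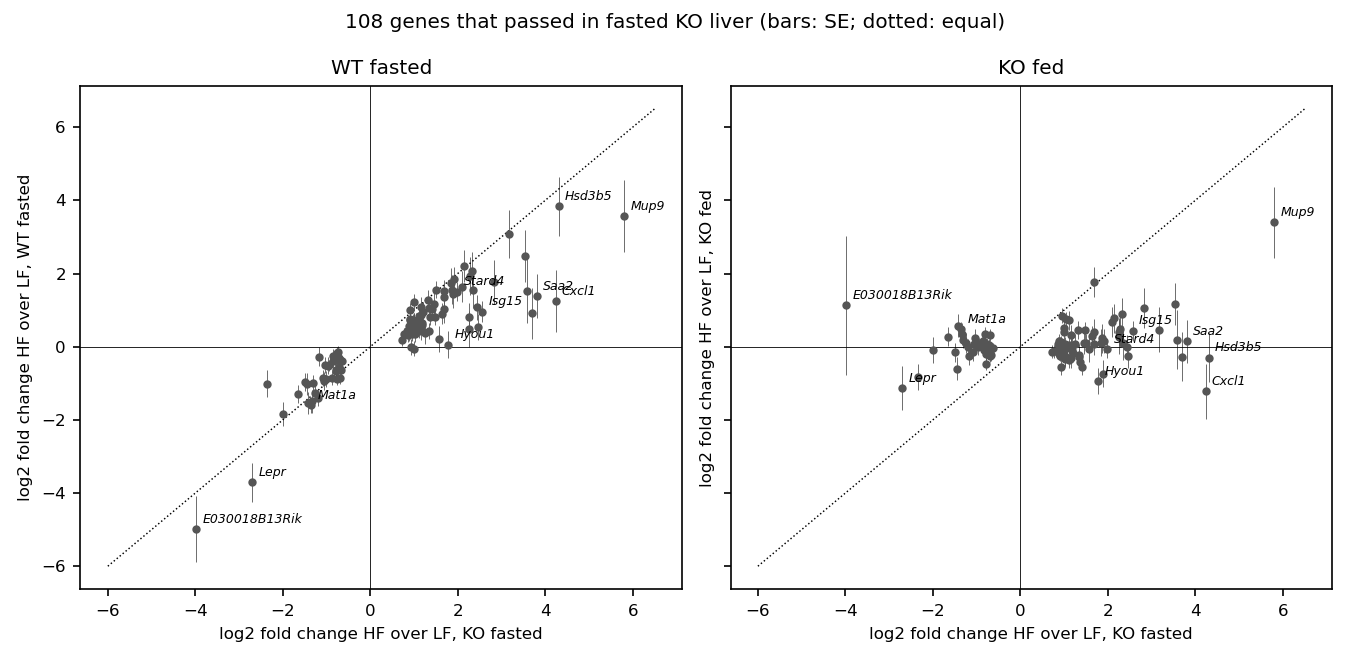
Log2 fold change HF over LF of the 108 genes that passed in fasted KO liver (x axis) against the same comparison in fasted WT (left) and in fed KO mice (right), with bars for the standard error and a dotted line for equal values. In fasted WT nearly all points keep their side of 0, whereas in fed KO mice most lie near 0 with medians of 0.06 for the genes that rose and 0.00 for those that fell.

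Few genes passed in fed KO mice. A single gene passed of 11631 (0.0086%), the bile acid exporter Abcc3 (1.23, adjusted p = 0.00816), which had 62.1, 86.5 and 63.4 CPM in HF and 30.8 to 54.7 CPM in LF mice after the fast (0.66, adjusted p = 0.14). Of the 108 genes 0 passed in fed mice. The direction was the same in fed KO mice for 40 of the 71 genes that rose and 19 of the 37 that fell. Among KO HF fed mice, markers of acinar pancreas reached 2530 CPM in 1 mouse, with a group median of 32.4 CPM. The same 5 adrenal genes as above summed to 35.2 CPM in replicate 1. The difference between the fasted and the fed diet effect in KO mice was significant for 36 genes (0.31% of 11631), 25 with a higher and 11 with a lower value in the fasted state. Without KO HF fasted replicate 1 this number was 0 and without KO HF fasted replicate 3 it was 6, and it was 86 without the adrenal-bearing mice and 0 within lane 7, where 773 genes had an unadjusted p under 0.05.

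For the genes with the smallest p-values in this test, the group means show where the difference lay. Stard4 averaged 120 CPM in KO LF fed and 115 CPM in KO HF fed mice, and 15.4 and 61.6 CPM in the fasted groups (difference of diet effects 2.05, SE 0.37, adjusted p = 0.0111). Slc41a2 averaged 61.5 and 51.3 CPM fed and 10.6 and 58.3 CPM fasted (2.73, adjusted p = 0.0111), Sec61b 124 and 84.8 CPM fed and 27 and 72.3 CPM fasted (1.95, adjusted p = 0.0111), and Lasp1, an actin-binding protein, 328 and 276 CPM fed and 158 and 296 CPM fasted (1.15, adjusted p = 0.0111). In each of these 4 genes the fasted LF group was the lowest. Entpd7, a nucleotide phosphohydrolase of intracellular membranes, averaged 13.8 and 4.83 CPM fed and 3.20 and 9.66 CPM fasted (3.07, adjusted p = 0.0111).

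In the other direction, Mat1a averaged 1960 CPM in KO LF fed and 2730 CPM in KO HF fed mice, and 14600 and 5740 CPM in the fasted groups (-1.83, SE 0.31, adjusted p = 0.00934). Plin5 averaged 42.0 and 51.0 CPM fed and 246 and 78.5 CPM fasted (-1.93, adjusted p = 0.0128), Glrx 42.0 and 47.2 CPM fed and 167 and 67.4 CPM fasted (-1.48, adjusted p = 0.0247), Khdrbs3 9.42 and 16.1 CPM fed and 26.3 and 13.3 CPM fasted (-1.75, adjusted p = 0.0307), and Acot12 69.3 and 88.8 CPM fed and 220 and 125 CPM fasted (-1.18, adjusted p = 0.0336). In these genes the fasted LF group was the highest. On the ER list, Pdia6 (1.77, adjusted p = 0.0118), Hyou1 (2.72, adjusted p = 0.0169) and Hsp90b1 (1.48, adjusted p = 0.0288), also differed between the feeding states, and Calr did (1.2, adjusted p = 0.0479). The ER list summed to 5620 to 11100 CPM in KO LF fed and 5170 to 6380 CPM in KO HF fed mice, with overlap, and the median log2 fold change of its members in fed KO mice was -0.46.

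The side on which each gene moved was compared with its fed and fasted levels in WT LF mice, none of which belong to the KO groups. Of the 71 genes that were higher on HF in fasted KO liver, 65 had a higher mean in WT LF fed than in WT LF fasted mice (91.5%, against 52.2% of all genes tested). Of the 37 that were lower on HF, 37 had a lower mean in WT LF fed than in WT LF fasted mice (100%, against 47.7% of all genes). These are counts of direction in group means, with no test. In the 4 WT LF fed mice the growth hormone and sex-biased list summed to 2130 to 17800 CPM, with a median of 15300 CPM. The stellate cell and matrix list summed to 925 to 2470 CPM, with a median of 1020 CPM. All 4 mice entered the means, and the counts were not repeated without any of them.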

How the data were processed

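RNA was extracted with Trizol from freeze-clamped livers of 32 male mice, libraries were made with the Lexogen QuantSeq 3′ kit, and single reads were sequenced on an Illumina HiSeq2500. The authors aligned the reads to GRCm38 with HISAT 0.1.5 and deposited raw counts per gene made with HTSeq 0.6.1p1, with SAMtools 1.2 among their tools. The sources give different Ensembl releases. Of 20076 genes, 163 had no symbol and held 0.125% of the counts. Counts of this kind cover 3′ ends and are not scaled by transcript length, so levels were compared within a gene.

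The counts were analysed here with edgeR 4.0.16 in R 4.3.3. Groups came from the labels, and 31 mice entered 1 fit of 8 groups (23 residual degrees of freedom), without KO HF fasted replicate 4. TMM scaling, filterByExpr by group and a robust quasi-likelihood test with Benjamini-Hochberg adjustment were used at a threshold of 0.05. CPM are scaled by TMM. P-values measure the spread between mice. KO HF fasted (n = 3) was compared with KO LF fasted (n = 4), and this diet effect was compared with those of fasted WT and fed KO mice by interaction contrasts. On simulated counts for the diet effect in fasted KO mice, with 11631 genes, 48% of genes changed 2-fold and 99% of those changed 4-fold were recovered, and 6.37% of the calls were false. The simulation gave every gene the same dispersion of 0.05 and held no mouse that stood apart and no RNA of other tissue. These shares therefore check the code and do not give the error rate or the power in the real mice.

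The genes named were Acadm, up to 12 genes per direction with the largest change among those that passed without overlap, the members of each pathway list with the smallest p and the highest CPM, the genes with the smallest p in the 2 differences of diet effects, and marker genes of other tissues. Other genes were chosen after their values were seen, as were the lists of interferon-stimulated genes, translocon, urea cycle, methionine and respiratory chain subunits. The members and all lists were chosen with earlier results of these data known. Kidney markers could not be assessed. Alternatives were RLE size factors, 2 other filters on low counts, DESeq2 1.42.0, voom in limma 3.58.1, other sets of mice, lane and age terms, a replicate block and leaving out each mouse.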

Additional observations from a re-analysis of the deposited data

Results flagged for a closer look

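The diet effect in fasted KO mice differed from that in fed KO mice for 36 genes by a test of the difference itself, and the 5 per direction with the smallest p are given here. The difference on the log2 scale was 2.05 for Stard4, 2.73 for Slc41a2, 1.15 for Lasp1, 3.07 for Entpd7 and 1.95 for Sec61b. It was -1.83 for Mat1a, -1.93 for Plin5, -1.48 for Glrx, -1.75 for Khdrbs3 and -1.18 for Acot12. Without KO HF fasted replicate 1, 0 genes passed this test.

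Of 50 values examined over the 4 KO LF fasted mice, 4 had 1 mouse far from the others, where chance gives about 1 in 20. KO LF fasted replicate 1 had 7.12 CPM of Ifit3b, 1130 CPM of summed macrophage markers and 5750 CPM of summed cytosolic heat shock genes, each above the rest of its group. KO LF fasted replicate 4 had 74.6 CPM of Ccnf.

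The library labelled KO HF fasted replicate 4, used in no comparison here, held 34100 CPM of heart markers, scaled by the library total alone.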

How the results depend on the processing

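All 108 genes kept their direction in each of the 21 alternatives, which was largely set by choosing them on the same mice. Against 108 genes called for the diet effect in fasted KO mice, DESeq2 called 282, the fit to the 7 mice alone 13, the fit to all 32 mice (with the heart-like library) 185, the fit to 30 mice without WT LF fed replicate 2 194, and the fit within lane 7 13. The 7 mice without both adrenal-bearing mice, an alternative chosen after seeing the data, gave 0. RLE scaling, both filters on low counts, voom and the lane and age terms gave 82 to 118. Leaving out 1 mouse gave 38 to 167. The difference between KO and WT gave 0 genes in each alternative run for it except that leaving out 1 mouse gave 0 to 1. For the difference between fasted and fed KO mice, against 36, DESeq2 called 109, all 32 mice 0, the 30 mice 60, lane 7 0, the fit without adrenal-bearing mice 86, and leaving out 1 mouse 0 to 54. The causes were not tested.

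Of 97 genes examined under each setting that had not passed, 18 changed sign with all 32 mice, 6 without the adrenal-bearing mice and 2 to 7 when 1 mouse was left out. Among those named here with values were Acacb (0.03 with all 32 mice), mt-Nd1 (0.31 with all 32 mice), Pck1 (0.41 without the adrenal-bearing mice, 0.4 in the 7 mice without them) and Acadm (-0.24 to 0.14 when 1 mouse was left out). Total counts per mouse, from 2031053 to 4292200, limit the precision for genes of a few CPM.

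The replicate numbers did not pair the mice. The correlations of same-numbered mice were 0.0237, -0.0713 and -0.159. With a replicate block the diet effect gave 79 genes, the difference between KO and WT 0 and that between fasted and fed KO mice 29.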
